A study of Mus musculus with 5 samples.

Results

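The genes described here are 42 genes of the actin cytoskeleton, listed by name and found by exact symbol in a table of 24084 genes. The list was chosen with earlier results of these data known. All 42 had a row and all passed the filter on low counts. They encode actin itself and the proteins that hold, nucleate, lengthen, cap, cut and bundle its filaments. Others encode the linkers that tie filaments to membrane and integrins, a protease of such linkers (Capn2) and the nonmuscle myosin II motor. The list also holds 1 intermediate filament protein, vimentin. Regulatory T cells (Tregs), CD4 T cells that express the transcription factor Foxp3 and restrain immune responses, were sorted from skin (2 libraries) and from the lymph nodes that drain it (3 libraries) and profiled by RNA sequencing. Both groups came from Foxp3-DTR/GFP mice at 13 days of age, whose Foxp3 locus carries a receptor for diphtheria toxin joined to green fluorescent protein. The groups thus share their alleles and differ in tissue, and no treatment is named. How many animals or cells a library stands for was not stated, nor whether libraries came from separate animals, so the variation that p-values are judged against is that of these libraries and may be technical.

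As background, monomeric actin is held in reserve by thymosins and profilin, the Arp2/3 complex starts new branches on existing filaments once proteins of the WASP and WAVE families switch it on, and capping proteins, coronins and cofilin end, trim and recycle them. T cells use this machinery to crawl through tissue and to build the contact zone with an antigen-presenting cell. Loss of several of its parts, such as WASP or coronin 1A, causes immunodeficiency.

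Counts assigned to genes ranged from 10468795 to 10787378 in the skin libraries and from 12305644 to 14595018 in the lymph node libraries, and 9192 to 9894 genes had a count in skin against 12173 to 12540 in lymph node. Foxp3 averaged 97.8 ± 28.1 CPM in skin and 94.8 ± 5.09 CPM in lymph node (SD, n = 2 and 3; CPM, the standard depth-scaled unit of RNA sequencing, with library sizes adjusted by TMM, the trimmed mean of M values). All 9 listed T cell and Treg markers, Ikzf2 and Ctla4 the most abundant in skin, were counted in both groups. Of the others, Lck was lower in skin (0.545-fold, adjusted p = 0.0492 by edgeR), and Cd3d, Cd3e, Cd3g and Cd4 lay below every lymph node value in both skin libraries (0.538 to 0.744-fold) without passing the threshold. Ctla4 and Ikzf2 were higher (3.34 and 1.85-fold, adjusted p = 0.0271 and 0.0484). The skin libraries also held transcripts of other cells, given here as sums of CPM without TMM. The 20 macrophage and dendritic cell markers summed to 2546 to 3167 CPM in skin, where 19 had a count (Itgax was at 0), and to 415 to 698 CPM in lymph node, where 12 had a count and Cd14, Cd163, Cd209a, Clec10a, Sirpa, Itgax and Pf4 were among those at 0. Ctss, which made up most of the lymph node sum, and Lyz2 were the most abundant of them in skin. The other 19, summed without Ctss as an alternative added after seeing the data, came to 2122 and 2720 CPM in skin, against 25.7, 15.3 and 31.0 CPM in lymph node. The 10 keratinocyte markers, led by Krt14 and Krt17, summed to 143 to 157 CPM in skin (Krt1 and Krt10 at 0) and 4.55 to 6.03 CPM in lymph node (Krt14, Krt5, Krt1, Trp63 and Dsc3 at 0). The 8 fibroblast markers summed to 88.4 CPM in skin library 1 and 9.55 CPM in library 2 of that tissue, against 0.343 to 4.79 CPM in lymph node. Most of the skin sums was Sparc (904 and 81 counts), followed by Col1a1 (38 and 0 counts). Col1a2, Col3a1, Dcn and Lum had 1 to 12 counts per skin library. Pdgfra was at 0 in both groups and Fbln1 in skin. The 7 smooth muscle markers summed to 0.556 and 29.0 CPM in skin and 3.15 to 7.39 CPM in lymph node. Nearly all of the sum in skin library 2 was Tpm2 (296 counts). Cnn1 and Des were at 0 in both groups and Myh11 in skin. The 6 endothelial markers summed to 2.77 to 68.3 CPM in skin and 358 to 518 CPM in lymph node, nearly all of it Pecam1, with Cdh5 at 0 in both groups. The 6 mast cell markers summed to 0 to 12.7 CPM in skin and 9.73 to 25.8 CPM in lymph node, with Cma1, Mcpt4, Tpsb2 and Ms4a2 at 0 in both. The 5 B cell markers with a row summed to 21.9 to 69.2 CPM in skin, where Cd79b was the only one counted, and to 82.2 to 216 CPM in lymph node. In sorted bulk samples fewer cells of a type and less RNA per cell cannot be told apart.

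Of the 42 genes, 4 were higher in skin Tregs (Vim, Tagln2, Capn2 and Flna), 0 were lower and 38 did not pass. The threshold was an adjusted p of 0.05 by edgeR's quasi-likelihood test across 11437 genes. At an unadjusted p under 0.05 by that test there were 11 members, of which Coro1a and Evl were lower. Of all 11437 tested genes, 3372 were under it, 1155 higher and 2217 lower. Among all tested genes 2.40% were called higher and 5.30% lower, 7.70% in all. The members' share was 9.52%, for a list chosen with earlier results of these data known. Of the 4 called, Vim encodes an intermediate filament protein and Capn2 a protease. Members were abundant, and of the 5742 genes whose average log2 CPM reached 5, 4.16% were called higher and 2.72% lower, beside 4 higher and 0 lower of the 40 members at that level. The median log2 fold change of the members was 0.11, with 24 positive and 18 negative, beside -0.21 over all tested genes. Upper-quartile scaling moved the median of all genes to -0.37 and turned that of the members to -0.04. The calls did not withstand the loss of a lymph node library. Without any 1 of the 3 edgeR called 0 genes of the whole table and 0 members (2361 to 2485 genes at an unadjusted p under 0.05), although the fold changes of the 4 members stayed between 1.08 and 2.91 on the log2 scale. On the full set DESeq2 called 8 members higher and 2 lower, beside 1235 genes higher and 2027 lower over the whole table.

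**Figure D1:**
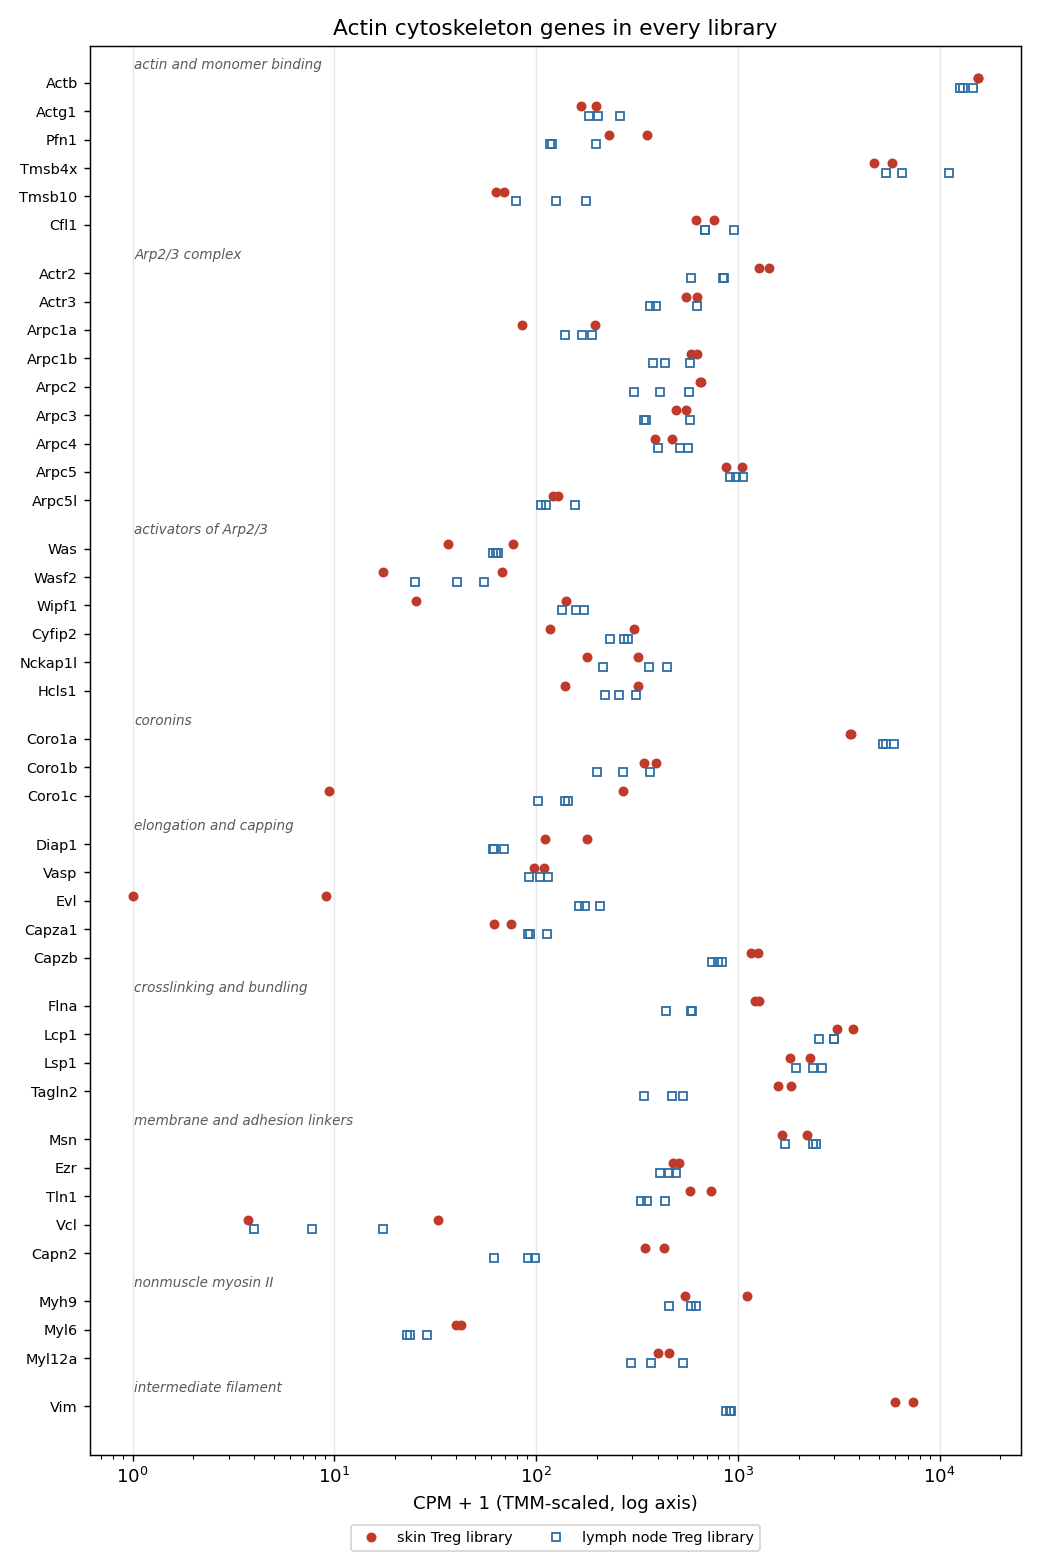
CPM + 1 (log axis) of the 42 genes in each of the 2 skin libraries (filled circles) and 3 lymph node libraries (open squares), grouped by role. Vim, Tagln2, Capn2 and Flna lie to the right in both skin libraries, Evl lies far to the left, and most other genes overlap or nearly touch.

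Vimentin, the intermediate filament protein of leukocytes and mesenchymal cells, showed the largest positive change of the 42 genes. Vim (chromosome 2, 13573927 to 13582826, mm10) had 5997 and 7344 CPM in the skin libraries, against 868, 913 and 919 CPM in the lymph node libraries. Both skin values lay far above all lymph node values, and the 3 lymph node values nearly coincided. The difference was 7.41-fold (log2 fold change 2.89, SE 0.16, adjusted p = 0.0124 by edgeR). Per kilobase of annotated exon, Vim ranked 3 of the 42 genes in skin (1406 CPM per kb) and 13 in lymph node (190 CPM per kb), and its share of all gene counts was 0.648 ± 0.0767% in skin and 0.0913 ± 0.00415% in lymph node. Macrophages, fibroblasts and endothelial cells also express Vim. The part of other cells in the Vim level was not tested.

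Tagln2 encodes transgelin-2, an actin-bundling protein that in T cells strengthens the contact with antigen-presenting cells. Tagln2 (chromosome 1, 172500047 to 172507380) had 1579.5 and 1832 CPM in the skin libraries, against 531, 341 and 473 CPM in the lymph node libraries. The groups did not overlap, and the difference was 3.81-fold (log2 fold change 1.93, SE 0.24, adjusted p = 0.0363 by edgeR). Capn2 encodes the large subunit of m-calpain, a calcium-dependent protease that cleaves talin and other adhesion linkers. Capn2 (chromosome 1, 182467260 to 182517608) had 344 and 428 CPM in skin, against 97.5, 60.8 and 90.4 CPM in lymph node. Every skin value exceeded every lymph node value, with a 4.65-fold difference (log2 fold change 2.22, SE 0.31, adjusted p = 0.0401 by edgeR). The opposite-strand gene Gm37885 overlaps 27.1% of the annotated Capn2 exon bases, and since the strand setting of the counting is not given, reads of the pair cannot be told apart there. Flna encodes filamin A, which crosslinks filaments into networks and anchors them to integrins. Flna (chromosome X, 74223461 to 74249820) had 1213 and 1276 CPM in skin, against 442, 592 and 583 CPM in lymph node. The groups were well separated, but the adjusted p lay close to the threshold (2.31-fold, log2 fold change 1.21, SE 0.20, adjusted p = 0.0452 by edgeR), and without a filter on low counts it was 0.0503. The mean sum of macrophage and dendritic cell markers in skin was 5.08-fold that in lymph node, and 100.9-fold without Ctss. Their part in these 3 differences was not tested.

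The promoters of these 4 genes are printed because they are the members that rose. Each is the 250 bases before the RefSeq gene start (GRCm38.p6, the assembly of mm10), in the direction of transcription. RefSeq starts differ from the GENCODE bounds printed above. By those bounds the Vim and Flna windows lie inside the gene and that of Tagln2 crosses its start. Other starts of the 4 genes were not searched. Capitals mark GC boxes (GGGCGG or its complement CCGCCC), the short element bound by SP and KLF factors. The windows are chr2:13574061-13574310 (plus strand) for Vim, chr1:172499996-172500245 (plus) for Tagln2, chr1:182517611-182517860 (minus) for Capn2 and chrX:74246535-74246784 (minus) for Flna.
Vim: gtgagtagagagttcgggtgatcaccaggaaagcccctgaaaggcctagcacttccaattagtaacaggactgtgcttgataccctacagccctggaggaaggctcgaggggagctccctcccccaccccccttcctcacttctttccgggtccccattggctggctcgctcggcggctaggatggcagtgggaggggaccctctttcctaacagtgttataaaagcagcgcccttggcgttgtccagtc
Tagln2: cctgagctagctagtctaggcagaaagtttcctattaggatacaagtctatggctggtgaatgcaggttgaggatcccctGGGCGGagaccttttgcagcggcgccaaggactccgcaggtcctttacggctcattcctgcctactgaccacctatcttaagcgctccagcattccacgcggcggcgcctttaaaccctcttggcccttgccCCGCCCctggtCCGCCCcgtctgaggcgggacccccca
Capn2: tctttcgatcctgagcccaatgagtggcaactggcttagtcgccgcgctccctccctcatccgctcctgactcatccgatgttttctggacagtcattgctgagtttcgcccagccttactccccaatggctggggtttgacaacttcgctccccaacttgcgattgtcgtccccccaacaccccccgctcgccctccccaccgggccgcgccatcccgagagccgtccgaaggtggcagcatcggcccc
Flna: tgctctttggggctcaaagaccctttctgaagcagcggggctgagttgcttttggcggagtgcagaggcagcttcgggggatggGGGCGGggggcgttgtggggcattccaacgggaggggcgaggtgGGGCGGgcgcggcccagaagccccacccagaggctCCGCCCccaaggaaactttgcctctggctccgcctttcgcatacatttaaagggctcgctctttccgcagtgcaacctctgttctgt
Tagln2 and Flna held 3 GC boxes each, Vim and Capn2 held 0. A GC box was present in at least 1 window of 24 of the 36 members with an entry in the RefSeq promoter table (66.7%). The share over all 27025 genes in that table was 35.4%. Those genes were not limited to the tested ones or matched to the members' abundance.

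Many actin genes are known targets of serum response factor, which binds the CArG box and responds to the level of free actin. This palindromic motif was found in at least 1 window of 4 of the 36 members (Actg1, Arpc4, Myl6 and Vcl). That is 11.1%, beside 1.62% of all genes in the table, again not matched for abundance. Actb, Arpc5l, Coro1b, Diap1, Lsp1 and Nckap1l had no matched entry and were not searched. None of the 4 risen genes had the CArG box in these windows. Those of Vcl, at chr14:20929148-20929397 (plus), and Actg1, at chr11:120348496-120348745 (minus), are shown with only the CArG box in capitals, as the motif's 2 examples among genes that were not called.
Vcl: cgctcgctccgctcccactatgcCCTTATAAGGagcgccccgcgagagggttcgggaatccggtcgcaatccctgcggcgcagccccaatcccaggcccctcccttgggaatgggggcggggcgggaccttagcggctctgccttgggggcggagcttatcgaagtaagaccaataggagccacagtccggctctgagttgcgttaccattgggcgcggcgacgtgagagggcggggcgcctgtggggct
Actg1: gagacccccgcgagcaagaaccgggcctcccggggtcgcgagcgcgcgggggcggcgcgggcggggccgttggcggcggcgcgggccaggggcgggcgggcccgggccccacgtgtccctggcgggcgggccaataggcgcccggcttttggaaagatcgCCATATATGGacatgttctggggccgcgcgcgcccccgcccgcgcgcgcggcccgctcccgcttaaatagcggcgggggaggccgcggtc
A match is a run of letters and not a measured binding site.

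Of the 6 genes for actin and the proteins that act on its monomers 0 passed the test, and Actb and Tmsb4x held the first 2 ranks per kilobase among the 42 genes in both tissues. Actb, beta-actin, had 15539 and 15471 CPM in the skin libraries, against 13068, 12579 and 14585 CPM in the lymph node libraries. Both skin values exceeded every lymph node value, but by less than the test could call (log2 fold change 0.21, 95% interval -0.12 to 0.54, adjusted p = 0.359 by edgeR). Tmsb4x, thymosin beta-4, which sequesters monomers, had 4755 and 5791 CPM in skin, against 11152, 5439 and 6489 CPM in lymph node. The lymph node libraries alone spanned 2.05-fold, and the groups overlapped (log2 fold change -0.55, adjusted p = 0.365 by edgeR). Tmsb10, its close relative, had 62.0 and 68.3 CPM in skin, against 175, 78.5 and 124 CPM in lymph node, with both skin values lowest (log2 fold change -0.95, adjusted p = 0.239 by edgeR). Pfn1, profilin, which delivers monomers to growing filament ends, had 229 and 352 CPM in skin, against 197, 119 and 116 CPM in lymph node, with both skin values highest (log2 fold change 1.01, adjusted p = 0.138 by edgeR). Cfl1, cofilin, which severs old filaments, and Actg1, gamma-actin, had log2 fold changes of -0.17 and -0.24 with overlapping groups.

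The sequence that genes share with copies elsewhere bears on some of these levels, since reads that do not align uniquely went to no gene. The summary row for alignments that were not unique held 64.5 to 72.0% of all counts. This is a share of counts and may differ from the share of reads. Cut into windows of 50 bases, 36.3% of Actg1 transcript windows also occurred in transcripts of other genes, as did 61.4% for Capza1, 27.0% for Tmsb10, 26.3% for Actr3, 9.12% for Actb and 8.38% for Myl6. The 4 risen genes had 0% (Vim, Capn2 and Flna) or 0.565% (Tagln2). Only annotated GENCODE transcripts were searched, so the values are lower limits, and comparisons between genes below inherit this loss while comparisons of 1 gene between libraries share it.

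Of the 9 genes of the Arp2/3 complex 0 passed the threshold, with 3 above in both skin libraries (16.8% of all tested genes were) and a median log2 fold change of 0.30. Actr2 encodes the Arp2 subunit, which with Arp3 forms the first pair of a new filament. Its level was 1432 and 1267 CPM in skin, against 839, 585 and 848 CPM in lymph node, above in both skin libraries (log2 fold change 0.83, 95% interval 0.26 to 1.40, adjusted p = 0.0734 by edgeR). Arpc5, a core subunit, had 1047 and 870.2 CPM in skin, against 1057, 977 and 916 CPM in lymph node, with overlapping groups (log2 fold change -0.04, 95% interval -0.49 to 0.41). Arpc2 and Arpc1b were likewise above in both skin libraries (log2 fold change 0.60, adjusted p = 0.250, and 0.39, adjusted p = 0.357, by edgeR), and Actr3, Arpc1a, Arpc3, Arpc4 and Arpc5l overlapped, with log2 fold changes from -0.24 to 0.35. Summed per kilobase, the complex came to 1715 and 1691 CPM per kb in skin, against 1513, 1419 and 1379 CPM per kb in lymph node. Arpc5 was the highest and Arpc5l the lowest subunit in every library.

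Of the 6 activators of the complex 0 passed, and 5 differed more than 2-fold between the 2 skin libraries. Nckap1l (HEM1), the blood cell subunit of the WAVE complex, had 319 and 177 CPM in skin, against 213, 444 and 362 CPM in lymph node. Hcls1, the leukocyte relative of cortactin, had 319 and 138 CPM in skin, against 258, 219 and 312 CPM in lymph node. In both genes the skin libraries enclosed or reached into the lymph node range (adjusted p = 0.552 and 0.811 by edgeR). Skin library 1 exceeded library 2 by 5.71-fold for Wipf1, which stabilises WASP, by 2.60-fold for Cyfip2, a WAVE subunit, and by 2.14-fold for Was, the WASP gene. For Wasf2, the WAVE2 gene, library 2 was the higher by 4.05-fold. All 6 genes overlapped between tissues, with log2 fold changes from -0.91 to 0.08. With skin library 1 left out, Wipf1, Cyfip2 and Hcls1 were at -2.66, -1.17 and -0.93 on the log2 scale. Without skin library 2 they were at -0.15, 0.21 and 0.27. Each of these fits holds 1 skin library, which is assumed to vary like the lymph node group.

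Coronins bind actin filaments and the Arp2/3 complex, and 0 of the 3 passed. Coro1a, the coronin of blood cells, had 3577 and 3657 CPM in skin, against 5401, 5232 and 5922 CPM in lymph node. The groups were clearly apart and the spread within each was small, yet the adjusted p just missed the threshold (log2 fold change -0.61, SE 0.14, 95% interval -0.96 to -0.26, adjusted p = 0.0552 by edgeR). DESeq2, limma-voom and upper-quartile scaling in edgeR each called it lower (adjusted p = 0.00246, 0.0114 and 0.0479). Without skin library 1 or 2, which leaves 1 skin library, its log2 fold change was -0.60 and -0.63. With RLE size factors, no filter or the stricter filter edgeR did not call it (adjusted p = 0.0663, 0.0679 and 0.0705). Nor did edgeR with the replicate number as a block (0.788) or without a lymph node library (0.146 to 0.247). Coro1b had 392 and 343 CPM in skin, against 201, 365 and 268 CPM in lymph node (log2 fold change 0.40, adjusted p = 0.456 by edgeR). Coro1c had 268 and 8.39 CPM in skin libraries 1 and 2, against 101, 144 and 137 CPM in lymph node. One skin library thus lay above and the other far below every lymph node value. The log2 fold change of 0.12 became -3.93 without skin library 1 and 1.07 without skin library 2, fits that each hold 1 skin library.

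Among the genes for filament growth and capping, 0 of 5 passed. Capzb and Diap1 lay above and Evl and Capza1 below every lymph node value in both skin libraries, as did 16.8% of all tested genes above and 33.5% below. Evl encodes an Ena/VASP protein that shields growing ends from capping. It had 8.05 CPM in skin library 1 (86 counts) and no count in skin library 2, where 3 counts, the limit that a count of 0 allows, would be 0.300 CPM, against 162, 174 and 205 CPM in lymph node. Its mean per kilobase was the lowest of the 42 genes in skin, though Vcl and Wasf2 were lower in skin library 1, and it had the largest negative change (log2 fold change -5.48, SE 1.84, adjusted p = 0.117 by edgeR); DESeq2 and limma-voom called it lower (adjusted p = 0.00391 and 0.0307). Transcripts lost before sequencing were not tested, and the skin libraries held fewer detected genes. Vasp, its relative, had 108 and 96.5 CPM in skin, against 114, 103 and 91.3 CPM in lymph node (log2 fold change -0.01, 95% interval -0.82 to 0.80). Capzb, the beta subunit of capping protein, had 1155 and 1252 CPM in skin, against 836, 747 and 795 CPM in lymph node, above in both (log2 fold change 0.60, adjusted p = 0.0717 by edgeR). Capza1, an alpha subunit, lay below in both skin libraries (log2 fold change -0.54, adjusted p = 0.400 by edgeR). Diap1, an older symbol of the formin gene Diaph1, had 109.8 and 178 CPM in skin, against 68.4, 60.0 and 60.9 CPM in lymph node, above in both (log2 fold change 1.19, adjusted p = 0.0988 by edgeR). DESeq2 called Actr2, Capzb, Diap1 and Tln1 higher beside the 4 risen genes.

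**Figure D2:**
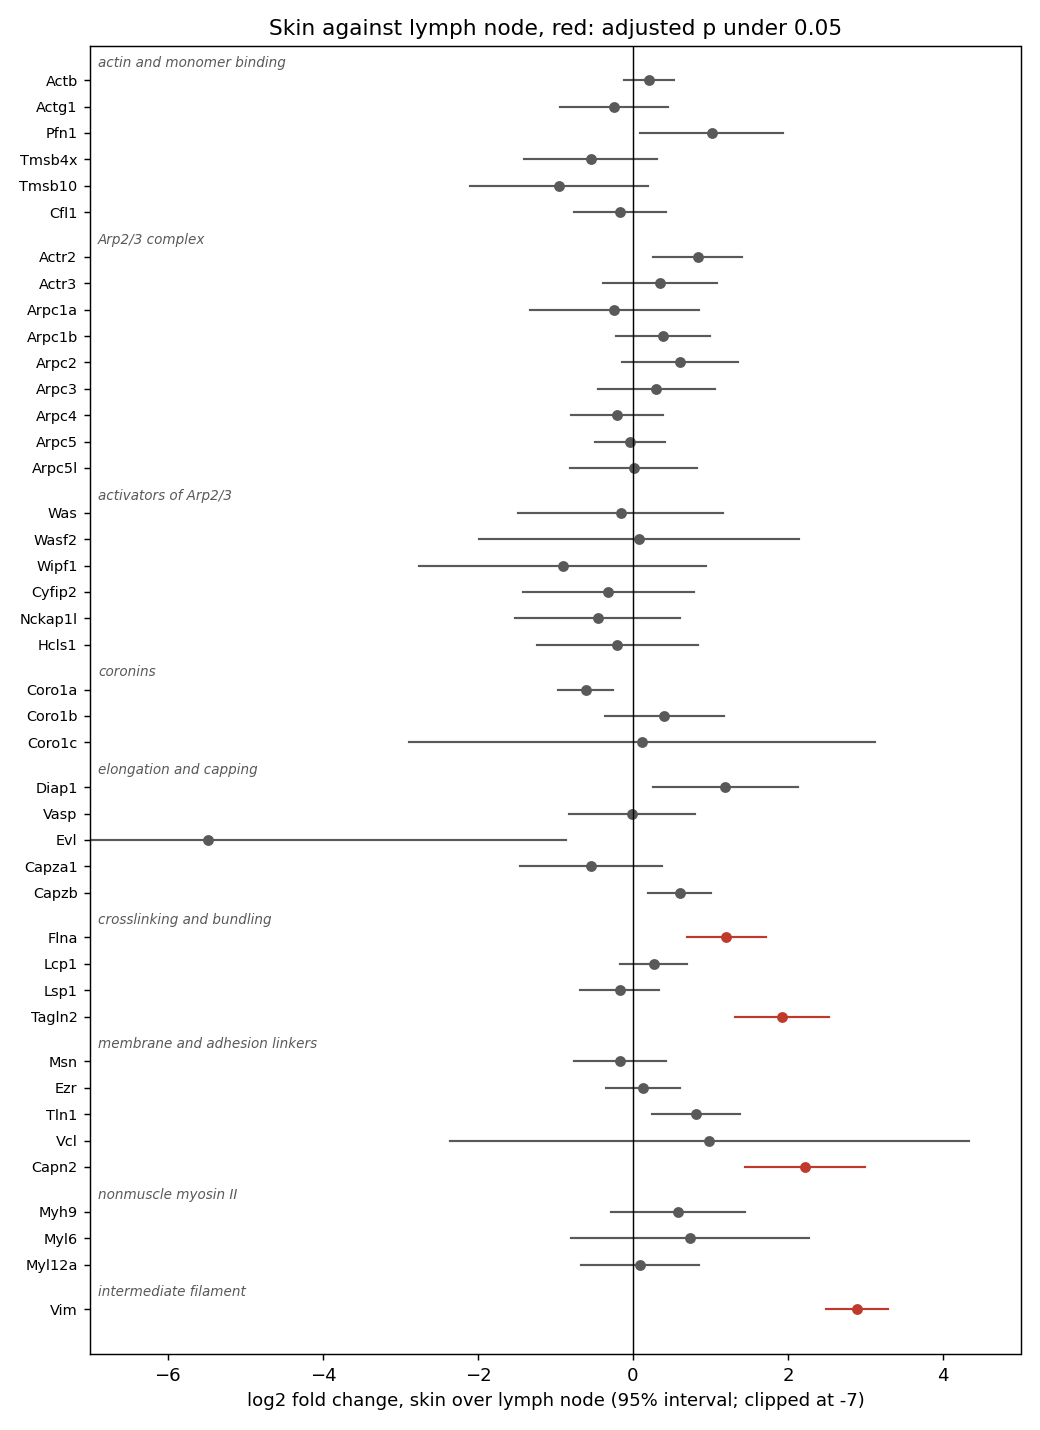
Log2 fold change, skin over lymph node, of each of the 42 genes with its 95% interval from edgeR, grouped by role; red marks an adjusted p under 0.05 and the axis ends at -7. Vim, Capn2, Tagln2 and Flna are the genes in red, and the intervals of Evl, Coro1c and Vcl are the widest.

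The other crosslinkers, the linkers and the motor gave no further call. Lcp1, L-plastin, which bundles filaments in leukocytes, had 3719 and 3089.8 CPM in skin, against 2513, 2991 and 2989 CPM in lymph node (log2 fold change 0.27, 95% interval -0.16 to 0.69). Lsp1, a leukocyte filament-binding protein, had 2271 and 1808 CPM in skin, against 2601, 1948 and 2344 CPM in lymph node (log2 fold change -0.17, 95% interval -0.68 to 0.34). Lcp1 lay just above the lymph node range in both skin libraries, and Lsp1 overlapped.

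Msn, moesin, which pins filaments to the plasma membrane, had 2212 and 1651 CPM in skin, against 1718, 2445 and 2357 CPM in lymph node (log2 fold change -0.17, 95% interval -0.77 to 0.43). Its relative Ezr, ezrin, had a log2 fold change of 0.13 with overlapping groups. Tln1, talin, which connects integrins to actin and is a calpain substrate, had 577 and 735 CPM in skin, against 329, 354 and 436 CPM in lymph node, above in both skin libraries (log2 fold change 0.81, 95% interval 0.24 to 1.38, adjusted p = 0.0774 by edgeR). Vcl, vinculin, which reinforces talin under force, was low and uneven, with 2.71 and 31.8 CPM in skin, against 16.4, 6.74 and 2.99 CPM in lymph node.

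Myh9, the heavy chain of nonmuscle myosin IIA, had 544 and 1111 CPM in skin, against 456, 584 and 619.8 CPM in lymph node, high in skin library 2 only (adjusted p = 0.337 by edgeR). Myl12a, a regulatory light chain, had 402 and 452 CPM in skin, against 534, 294 and 371 CPM in lymph node, with overlapping groups (log2 fold change 0.10). Myl6, the essential light chain, had 41.3 and 39.1 CPM in skin, against 27.9, 21.8 and 22.8 CPM in lymph node, above in both (log2 fold change 0.74, adjusted p = 0.498 by edgeR).

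Counted by order alone, both skin values exceeded every lymph node value for 14 of the 42 genes (33.3%) and below them for 4 (9.52%), where all tested genes gave 16.8% above and 33.5% below, and genes whose average log2 CPM reached 5 gave 23.8% above and 24.7% below. For 14 members the 95% interval of the log2 fold change lay within 1 unit of 0 on both sides, that is, inside a 2-fold difference either way. For the rest of the 38 that did not pass, the interval reached a 2-fold difference. The 41 members at 20 CPM or more in lymph node were also compared between the skin libraries: 22.0% differed more than 2-fold, beside 53.4% of the 6660 tested genes at that level, a gap that was not tested. Among the lymph node libraries these shares were 9.76 and 14.9%. The 42 genes together held 5.26 and 5.20% of gene counts in skin, against 4.86, 4.39 and 4.74% in lymph node. Without Vim, as an alternative added after seeing the data, they held 4.69 and 4.53% in skin, against 4.78, 4.30 and 4.65% in lymph node, with overlapping groups.

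Levels within a family were compared per kilobase of annotated exon, since raw counts grow with length. The length is the union of all annotated exons of a gene, whether or not these cells use them. The shares here and the ranks per kilobase above depend on it. Actb made up 98.7 and 98.9% of the 2 cytoplasmic actins in skin, against 98.6, 98.4 and 98.2% in lymph node. How many Actg1 reads were lost to its copies was not measured. Tmsb4x made up 98.6 and 98.8% of the 2 thymosins in skin, against 98.3, 98.5 and 98.0% in lymph node. For Evl and Vasp the balance differed most. Vasp made up 93.8 and 100% of the pair in skin, against 44.2, 40.0 and 33.3% in lymph node. Coro1b made up 8.52 and 7.53% of the 3 coronins in skin, against 3.11, 5.66 and 3.75% in lymph node, with both skin values above. Ptprcap, on the same strand, and Rps6kb2, on the opposite strand, overlap 13.5% of the annotated Coro1b exon bases. Other genes also overlap 25.5% of those of Vcl, 19.9% of Myl12a, 18.2% of Arpc1b and 16.5% of Cfl1, among other members. The effect of these overlaps on the counts was not measured. Arpc1a made up 21.0 and 39.8% of the Arpc1 pair in skin, against 43.4, 42.1 and 39.5% in lymph node, so that skin library 2 fell within the lymph node range. Arpc5l was at 5.52 and 6.92% of the Arpc5 pair in skin, against 4.75, 7.45 and 5.80% in lymph node, and Ezr at 29.3 and 37.2% of moesin and ezrin, against 31.4, 26.3 and 28.6%. Both overlapped between tissues. No test is given for these shares, since 2 against 3 libraries are too few for an exact test to pass 0.05.

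**Figure D3:**
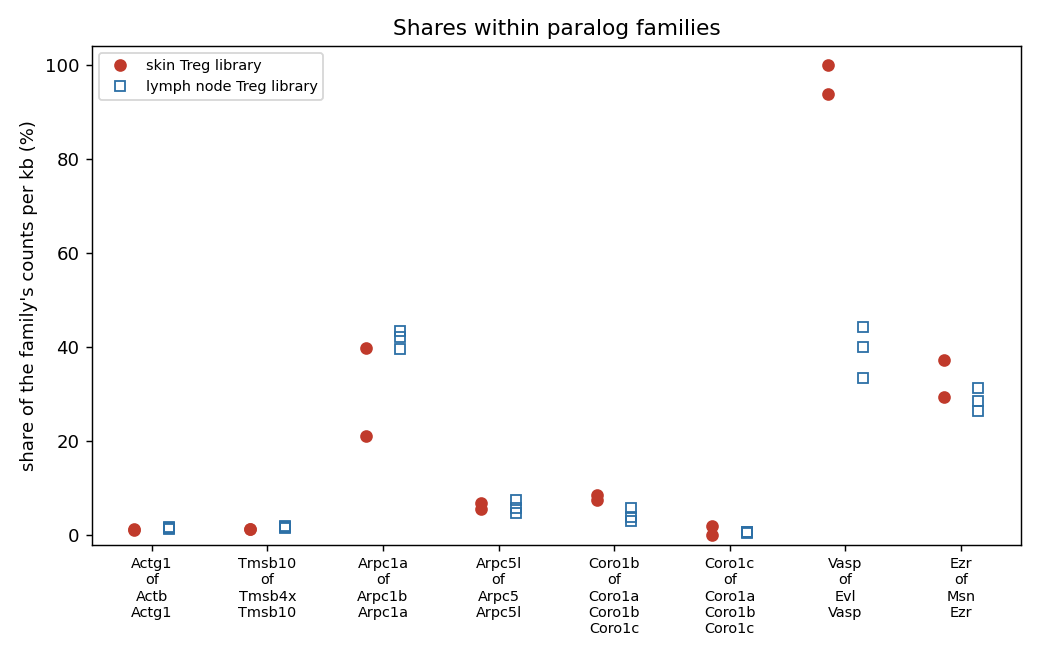
Share of each named gene in its family's counts per kb (percent) in each skin library (filled circles) and lymph node library (open squares). Vasp takes 93.8 and 100% of the Evl and Vasp pair in skin and 33.3 to 44.2% in lymph node, the widest gap among the families shown.

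Other genes of the actin pathway were tested beside the 42. Of 97 genes with a row, 94 were tested by edgeR, which called 8 higher and 4 lower and left 82 uncalled, or 12.8% called beside 7.70% of all genes, and their median log2 fold change was 0.18. Without any 1 lymph node library edgeR called 0 of them. Among crosslinkers and linkers, Plec (plectin, which ties vimentin to actin) and Iqgap1, a scaffold for Cdc42 and Rac, were among those higher. Plec had 1545 and 1521 CPM in skin, against 332, 365 and 474 CPM in lymph node, with the skin values close together and far above (log2 fold change 1.97, SE 0.21, adjusted p = 0.0271 by edgeR). Iqgap1 rose 2.53-fold and Capg, which caps filament ends, 3.29-fold (adjusted p = 0.0452 and 0.0260 by edgeR). The part of macrophages and dendritic cells in the Plec, Iqgap1 and Capg differences was not tested.

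The unconventional myosins Myo1f and Myo5a and the formin Fmnl1 were higher as well. Myo1f, a motor of blood cells, had 486 and 317 CPM in skin, against 31.4, 48.1 and 69.7 CPM in lymph node (log2 fold change 3.01, SE 0.43, adjusted p = 0.0410 by edgeR). Myo5a, which carries vesicles, rose 9.28-fold and Fmnl1 4.09-fold (adjusted p = 0.0452 and 0.0496 by edgeR). Myo1f is abundant in macrophages and neutrophils. The markers of macrophages and dendritic cells without Ctss were 100.9-fold higher in mean sum in skin (5.08-fold with it), and their part here was not tested.

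Of the WAVE complex subunits in this list, Cyfip1 was higher and Abi3 lower. Cyfip1 had 319 and 221 CPM in skin, against 57.4, 74.9 and 40.8 CPM in lymph node (log2 fold change 2.22, SE 0.38, adjusted p = 0.0452 by edgeR), while its paralog Cyfip2 had 304 and 117 CPM in skin, against 231, 271 and 285 CPM in lymph node. Abi3, an adaptor of the complex, had no count in either skin library and 38.1, 48.9 and 40.3 CPM in lymph node, at least 293-fold lower in skin with 3 counts over both skin libraries as the floor (adjusted p = 0.0399 by edgeR). Pak1, a kinase that acts below Rac and Cdc42, also had no count in skin and 12.9, 14.2 and 12.7 CPM in lymph node, at least 91.4-fold lower (adjusted p = 0.0463 by edgeR). These bounds cover counting error only, and loss of transcripts in libraries with fewer detected genes was not tested.

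Among the small GTPases that steer actin and their regulators, Rhoh and Arhgap15 were lower and 18 of the 20 tested did not pass. Rhoh, an atypical GTPase needed for T cell receptor signalling, had 448 and 354 CPM in skin, against 791, 756 and 876 CPM in lymph node (log2 fold change -1.01, SE 0.20, adjusted p = 0.0496 by edgeR). Arhgap15, a protein that turns Rac off, had 240.1 and 154 CPM in skin, against 764, 674 and 801 CPM in lymph node (log2 fold change -1.92, SE 0.27, adjusted p = 0.0410 by edgeR). Skin values of both lay below all lymph node values. Rac2, the Rac of blood cells, had 3677 and 3877 CPM in skin, against 6104, 4718 and 5736 CPM in lymph node (log2 fold change -0.55, adjusted p = 0.0970 by edgeR), and Rhoa and Cdc42 each had a log2 fold change of 0.11 with overlapping groups.

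**Figure D4:**
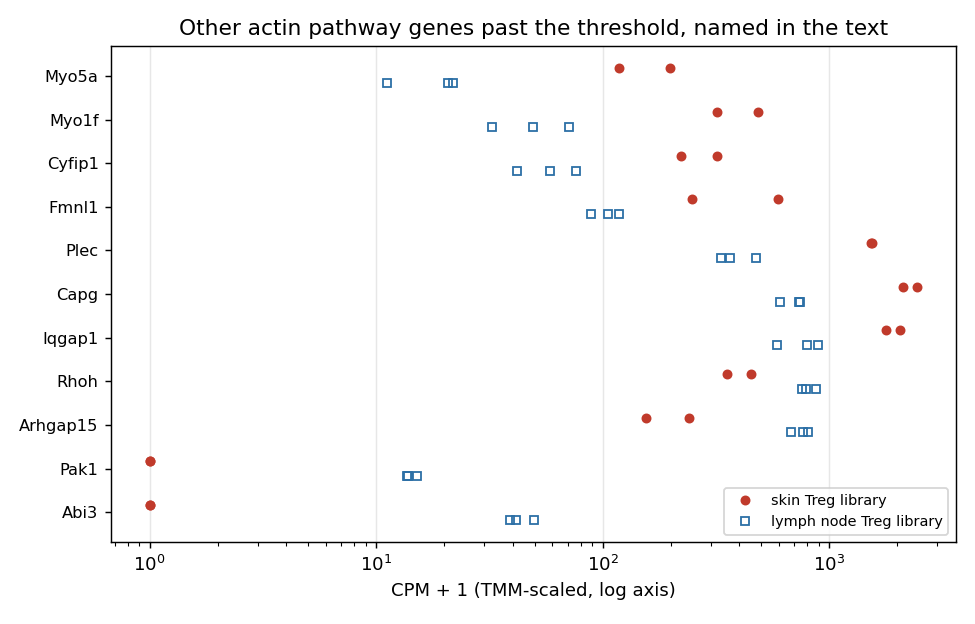
CPM + 1 (log axis) of the other actin pathway genes past the threshold that the text names, in each skin library (filled circles) and lymph node library (open squares). Myo5a, Myo1f, Cyfip1, Fmnl1, Plec, Capg and Iqgap1 lie higher in both skin libraries, and Rhoh, Arhgap15, Pak1 and Abi3 lie lower, with Pak1 and Abi3 at 0 CPM in skin.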

How the data were processed

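Messenger RNA of sorted Tregs was sequenced in 2 skin and 3 lymph node libraries, prepared with a SMARTer kit for ultra-low input per the labels' protocols. The authors deposited whole-number counts per gene symbol, not normalized. Per the submitters' processing notes, HTSeq 0.6.1, SAMtools 0.1.19.0, TopHat2 2.0.12, CASAVA 1.8.2 and Bowtie2 2.1.0.0 were used on mm10. Neither their options nor the strand setting is given in the sources used. The header was read as shifted by 1 cell, and 5 HTSeq summary rows were left out (not unique 64.5 to 72.0%, outside genes 8.35 to 14.0% and ambiguous 0.400 to 0.433% of all counts).

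Counts were tested with edgeR 4.0.16 in R 4.3.3: filterByExpr (minimum count 10), TMM, quasi-likelihood F test of tissue over all 5 libraries, Benjamini-Hochberg adjustment over 11437 genes, threshold 0.05. The common dispersion was 0.843. SE is the log2 fold change divided by the square root of F. DESeq2 1.42.0 and limma 3.58.1 (voom) were alternatives. Intervals and floors cover counting error or library spread only, since PCR copies are not independent molecules.

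The 42 genes, the pathway and marker lists and the tests were chosen with earlier results of these data known. Values in every library are given for members past the threshold, the 2 most abundant of each role and Rac2. They are also given for the pathway genes past the threshold that are named, except Iqgap1 and Capg. For Iqgap1 and Capg the fold and adjusted p are given, and for Rhoa and Cdc42 the fold change and order. Values in every library of Pfn1, Tmsb10, Coro1c, Diap1, Vasp, Cyfip2, Vcl, Myl6, Rhoh and Fmnl1 were chosen after they were seen. Positions and lengths come from GENCODE M21 (GRCm38), promoters from RefSeq GRCm38.p6. Some listed genes counted here are not reported here by name. All values come from 1 table, and 0 of its library columns were left unmatched.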

Additional observations from a re-analysis of the deposited data

How the results depend on the processing

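The 4 risen members kept a positive fold change under all 12 alternatives; their calls ended without a lymph node library or with the replicate block, and that of Flna without a filter. With RLE size factors and the stricter filter (1 CPM in 3 libraries) edgeR called the same number of members, 4 higher and 0 lower. Upper-quartile scaling gave 1 lower and limma-voom 6 higher and 2 lower, and DESeq2 gave 8 higher and 2 lower. Leaving out 1 library gave 0 to 9 members higher and 0 to 6 lower, 0 to 22 other pathway genes higher and 0 to 21 lower, and 0 to 2110 genes higher and 0 to 3955 lower in all, where the full set gave 275 and 606. The 0 calls by edgeR came without a lymph node library (2361 to 2485 genes at an unadjusted p under 0.05), the high counts without a skin library, when the lone skin library is assumed to vary like the lymph node group. Over all genes DESeq2 called 1235 higher and 2027 lower, limma-voom 566 and 1665, edgeR without a filter 136 and 179, and the stricter filter 1199 lower. Of the other pathway genes, with 8 higher and 4 lower in the full set, DESeq2 called 20 higher and 7 lower and edgeR without a filter 5 and 2.

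The labels give replicate numbers but do not say that they mark pairs, so the numbers were not taken as pairs. Deviations of same-numbered libraries from their tissue means had an r across genes of -0.04 and -0.03. With 2 skin libraries these deviations mirror each other, so the values cannot decide whether the libraries are pairs. With the number as a replicate block edgeR called 11 genes higher and 10 lower (772 at an unadjusted p under 0.05), 0 members and 0 other pathway genes in either direction, and the median log2 fold change of the members was -0.059 (all genes -0.86), against 0.11 in the fit without it; the cause was not tested.

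Over the 42 members and 12 alternatives, 461 of 504 fold changes kept their side of the threshold, 17 lost and 25 gained a call, and 1 reversed: Coro1c at -3.93 without skin library 1 (1.07 without skin library 2). The fold change had the other sign in 36 of the 504, 10 of them without skin library 2. Without length, the differences between tissues in the paralog shares moved by less than the spread, while the shares themselves moved (Arpc1a averaged 26.4% in lymph node, against 41.7% per length). Without Actb, Tmsb4x and Coro1a the members held 2.93% of gene counts in skin and 2.02% in lymph node, against 5.23 and 4.67% with them. Without Vim, added after seeing the data, they held 4.61 and 4.58%.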
